A study of Homo sapiens with 6 samples.

Results

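Heat shock chaperones of the cytosol and mitochondria were examined in ES-2, a human ovarian cancer cell line, as a list of 42 genes: HSP70 and its relatives, HSP90, DNAJ proteins, small heat shock proteins, the mitochondrial chaperonin, the CCT ring, co-chaperones and heat shock factors. A gene counted as measured where a probe set of the array named it and no other gene, and it was read from the brightest such probe set, with a probe set of the cross-matching _x_at type taken where it was the sole choice. This gave 39 of the 42 genes, of 18132 genes in all. HSPA1A, HSF2 and AHSA1 were not analysed here as genes of their own, although probe sets assigned jointly to HSPA1A and its near-identical neighbour HSPA1B are described below.

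The 6 PrimeView arrays, which measure RNA by hybridisation to short oligonucleotides, came from 3 samples labelled CADM1 overexpression and 3 labelled as ES-2 cells, the mock controls in the series' design. CADM1 is an adhesion molecule studied as a tumour suppressor, and the study asked which pathways change with it. Every culture was ES-2 in logarithmic growth. No vector, promoter, clone, selection or stress treatment is given in the sources used here, 2 of the overexpression samples carry source names that read CADM2 and CADM3, and nothing states that the samples of a group were grown separately. The tests below therefore weigh differences against an array-to-array spread that may be purely technical. The check of the targeted gene went against the labels: the brightest CADM1 probe set averaged 8.14 in the arrays labelled overexpression and 10.26 in those labelled control, and differed by -2.12 ± 0.031 (SE) on the log2 scale (adjusted p = 5.45e-15 by limma), while the other 5 CADM1 probe sets lay between -0.06 and 0.17 with no call. The brightest of these 5 was higher, at 7.72, 7.61 and 7.58 in the arrays labelled overexpression and 7.49, 7.44 and 7.46 in those labelled control. Its groups did not overlap (adjusted p = 0.0975 by limma across every probe set). Whether the CADM1 probe sets lie in the introduced sequence is not known. The groups are therefore named by their labels throughout, and every direction below is that of the arrays labelled overexpression against the arrays labelled control.

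Values are log2 signals per probe set, taken to be log2 from their range of 2.15 to 14.33, and their array medians ran from 6.18 to 6.20. Of the epithelial markers KRT8 and KRT18, both read from _x_at probe sets, were bright, at group means of 12.95 to 13.30. The other epithelial markers were dim, EPCAM averaging 2.90 and 3.01, CDH1 4.92 and 4.74, and KRT19 5.53 and 5.55. The ovarian tumour markers PAX8, WT1 and MUC16 averaged between 4.23 and 5.47. All these dim markers lay below the median of all probe sets, 6.19. The 10 markers of leukocytes, endothelium and fibroblasts averaged between 2.88 and 6.77, and CDH5 alone, at 6.50 and 6.77, passed that median. CDH5 was called as lower, and its part in the results below was not tested.

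Chaperones bind unfolded stretches of protein. HSP70 proteins do so in cycles of ATP hydrolysis that DNAJ proteins start and nucleotide exchange factors such as HSPH1 and the BAG proteins end, HSP90 takes over partly folded clients, and the CCT and HSPD1-HSPE1 rings enclose a chain while it folds, actin and tubulin being the best known clients of CCT. HSF1 is the transcription factor that raises many of these genes when proteins misfold, by binding heat shock elements, which are repeats of the letters GAA in alternating orientation.

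The DNA upstream of the genes shows which of them carry such letters. The 250 bases before each RefSeq start site (build GRCh38.p14) were searched for GAANNTTC and TTCNNGAA, each of which reads the same on both strands and may overlap the other. Windows were at hand for 40 of the 42 genes, all but HSF1 and HSPA14. Of these 40 genes 20, or 50%, held at least 1 match in at least 1 window, as did 14.0% of the 27305 genes with a window. Counted by window, matches lay in 20 of 56 windows of these genes and in 11.6% of all 35116 windows. By family, a match was held by both HSP90 genes, all 3 small heat shock proteins, 5 of 9 DNAJ genes, 5 of 10 HSP70 genes, 1 of 2 genes of the mitochondrial chaperonin, 2 of 6 co-chaperones, 2 of 7 CCT genes and 0 of 1 heat shock factor. These counts are small and were not compared by a test. Of 18 endoplasmic reticulum chaperones with a window 3 held one. The windows below all hold a match and belong to some of the genes to which the results return. They are written 5′ to 3′ towards the start site, with the matched letters in capitals. The windows of CCT4, CCT3, HSPH1, BAG1 and STIP1 hold no match and are not printed, nor are the further DNAJB1 windows, which hold none.

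DNAJB1, chr19:14518398-14518647, minus strand: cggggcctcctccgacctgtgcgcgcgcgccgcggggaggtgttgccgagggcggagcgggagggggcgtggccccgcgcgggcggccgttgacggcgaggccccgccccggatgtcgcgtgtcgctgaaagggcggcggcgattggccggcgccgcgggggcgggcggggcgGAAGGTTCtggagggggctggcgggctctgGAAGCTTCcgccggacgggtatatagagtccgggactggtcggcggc
HSPA1A, chr6:31815293-31815542, plus strand: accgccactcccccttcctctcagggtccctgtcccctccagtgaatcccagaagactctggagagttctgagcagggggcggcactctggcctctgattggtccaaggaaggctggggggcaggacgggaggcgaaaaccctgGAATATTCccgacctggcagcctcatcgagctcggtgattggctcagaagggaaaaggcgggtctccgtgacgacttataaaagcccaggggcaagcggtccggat
HSPA1B, chr6:31827488-31827737, plus strand: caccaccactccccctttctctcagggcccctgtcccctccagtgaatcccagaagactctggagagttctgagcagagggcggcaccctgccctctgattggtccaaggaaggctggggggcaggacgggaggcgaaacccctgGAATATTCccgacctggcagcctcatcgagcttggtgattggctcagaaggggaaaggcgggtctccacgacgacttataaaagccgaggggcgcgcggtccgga
HSPA8, chr11:123062137-123062386, minus strand: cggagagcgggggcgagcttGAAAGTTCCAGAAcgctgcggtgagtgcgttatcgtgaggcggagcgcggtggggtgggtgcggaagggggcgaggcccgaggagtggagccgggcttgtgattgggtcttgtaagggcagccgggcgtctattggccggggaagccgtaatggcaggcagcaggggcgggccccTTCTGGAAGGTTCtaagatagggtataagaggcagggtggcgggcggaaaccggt
HSPB1, chr7:76302423-76302672, plus strand: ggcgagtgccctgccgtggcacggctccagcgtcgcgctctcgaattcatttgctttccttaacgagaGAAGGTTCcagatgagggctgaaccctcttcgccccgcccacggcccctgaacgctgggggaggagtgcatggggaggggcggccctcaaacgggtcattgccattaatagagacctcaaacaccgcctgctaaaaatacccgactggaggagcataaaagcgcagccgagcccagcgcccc
HSPB8, chr12:119178681-119178930, plus strand: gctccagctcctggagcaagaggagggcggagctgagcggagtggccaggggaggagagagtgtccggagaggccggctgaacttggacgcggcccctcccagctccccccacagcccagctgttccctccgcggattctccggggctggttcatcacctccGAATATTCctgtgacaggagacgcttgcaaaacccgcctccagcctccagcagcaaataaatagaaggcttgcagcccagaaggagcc
CHORDC1, chr11:90223050-90223299, minus strand: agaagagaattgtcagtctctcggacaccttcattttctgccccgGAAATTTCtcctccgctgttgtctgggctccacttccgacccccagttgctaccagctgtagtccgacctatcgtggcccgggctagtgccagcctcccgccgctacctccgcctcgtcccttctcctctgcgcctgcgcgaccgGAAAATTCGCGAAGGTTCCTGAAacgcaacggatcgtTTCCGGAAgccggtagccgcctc

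In DNAJB1 the matches began 77 and 47 bases before the start, and in CHORDC1 a run of 4 overlapping matches began 60 bases before it. The windows of HSPA1A and HSPA1B were 93.6% identical and hold the same match, 106 and 105 bases before the start. That match also lies in the window of HSPA1L, which is read in the opposite direction and shares 241 bases with that of HSPA1A. HSPA8, the constitutive HSP70, held overlapping matches beginning 230 and 225 bases before the start and again 55 and 50 bases before it. HSPB1 and HSPB8 held 1 match each. A match is a description of the letters and not a measured binding site.

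Across the 39 measured genes the differences between the labelled groups were small. The list was chosen with earlier results of these data known, so its shares beside those of all genes are no independent test. CCT4, a subunit of the CCT ring, fell by 0.16, DNAJB1, the main heat-inducible J protein, fell by 0.15, and HSPB1, the small heat shock protein Hsp27, fell by 0.11. HSPB8, a small heat shock protein that works with BAG3 in clearing misfolded proteins, rose by 0.18, the largest change of the 39 in either direction, a 1.14-fold difference. These 4 were the genes called (limma, adjusted p under 0.05 over all 18132 genes), 10.3% of the 39 against a background of 2.16% over all genes, with 1.2% called lower and 0.96% called higher. Most of the 39 are bright, which bears on that background: 31 lay among the brightest 25% of genes, where 5.49% were called, and these 31 held all 4 calls. With the fit restricted to genes at or above the median level, 7 of 36 were called, against 5.77% of the genes in that fit, of which 51.8% were negative. At an unadjusted p under 0.05 (limma), 13 of the 39 were lower and 4 higher, against 6.97% and 6.95% of all genes. In the fit restricted to the median level and above, 13 of the 36 were lower and 4 higher, beside 1131 and 895 of 9756 genes. Without the mean-variance trend, limma called none of the 39 (5 lower and 3 higher at an unadjusted p under 0.05) and 11 of all genes.

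The median log2 fold change of the 39 genes was -0.03, beside 0.01 for all genes, and 27 of the 39, or 69.2%, were negative, as were 45.4% of all genes and 49.3% of the brightest 25%. The median was -0.008 without control replicate 3 and -0.037 without overexpression replicate 1. The groups did not overlap, with the arrays labelled overexpression lower, in 12 genes, or 30.8%, against 8.61% of all genes. They did not overlap in the opposite direction in 5 genes, or 12.8%, against 9.68%. These shares were not computed among genes of like brightness, so the background for a bright list is not known. For 33 of the 35 genes that were not called, the 95% interval of the difference lay within a 1.2-fold change either way, the exceptions being the dim genes DNAJA4 and HSPB6. The intervals of the called genes CCT4, DNAJB1, HSPB1 and HSPB8 lay within that bound too, so it does not separate called genes from the others. Each interval is that of the probe set standing for the gene.

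**Figure D1:**
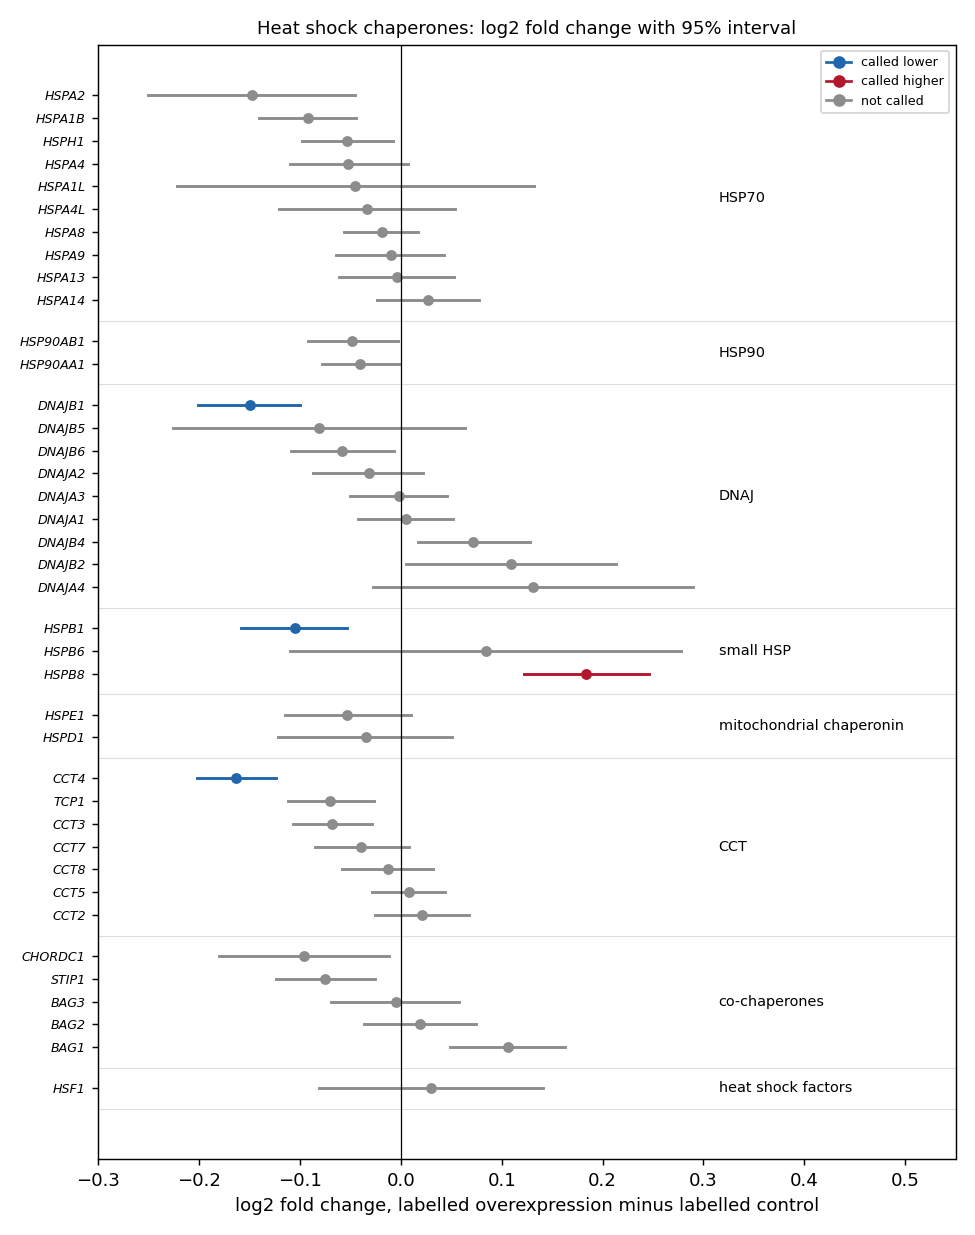
Log2 fold change (horizontal axis, arrays labelled overexpression minus arrays labelled control) of the 39 measured chaperone genes, by family, with points for the estimate and lines for the 95% interval. CCT4, DNAJB1 and HSPB1 are called lower and HSPB8 higher, and the intervals of the other genes are drawn in grey.

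In the HSP70 family, which supplies the general folding machine of the cell, none of 10 genes was called (limma; 3 negative and 0 positive at an unadjusted p under 0.05), and 9 were negative, with a median of -0.04. HSPA1B, the stress-inducible HSP70, gave 10.30, 10.30 and 10.33 in the arrays labelled overexpression and 10.38, 10.41 and 10.42 in those labelled control. These did not overlap, and the difference of -0.09 ± 0.023 (SE) stood just outside the threshold (limma, adjusted p = 0.0513, and 0.0297 to 0.348 over the other fits). Its probe set is of the _x_at type. Of the 4 probe sets assigned jointly to HSPA1A and HSPA1B, all were negative, from -0.12 to -0.04, and 1 passed the threshold by itself (adjusted p = 0.013 by limma across every probe set). That probe set gave 10.83, 10.85 and 10.84 in the arrays labelled overexpression against 10.93, 10.97 and 10.97, and the groups did not overlap there or on 2 of the other 3. The copies cannot be told apart by these probe sets.

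HSPA2, best known from the testis, had the lowest value of the family, with 7.46, 7.51 and 7.57 against 7.58, 7.71 and 7.69, a difference of -0.15 ± 0.048 (SE) that was not called (limma, adjusted p = 0.149). HSPA8 was nearly level, at 13.65, 13.66 and 13.67 against 13.68, 13.66 and 13.70. Its difference of -0.02 had a 95% interval of -0.06 to 0.02, and all 9 of its probe sets were negative, the brightest 4 between -0.03 and -0.01. The groups overlapped for HSPA8, for the mitochondrial HSP70 HSPA9 (-0.01), for the HSP110-type exchange factors HSPA4 (-0.05) and HSPA4L (-0.03), and for HSPA1L (-0.045) and the microsome-associated HSPA13 (-0.004). Only 1 of 5 HSPA9 probe sets and 1 of 4 HSPA13 probe sets were negative, in each case the one standing for the gene. HSPA14, which works on the ribosome, was the positive member at 0.03, with 9.81, 9.82 and 9.82 against 9.78, 9.80 and 9.79.

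HSPH1 is the heat-inducible HSP110 exchange factor. The probe set standing for the gene gave 10.76, 10.78 and 10.79 against 10.83, 10.81 and 10.84, a difference of -0.05 ± 0.021 (SE) that was not called (limma, adjusted p = 0.252). All 8 HSPH1 probe sets were negative, from -0.14 to -0.05, 7 of them with groups that did not overlap, and the dimmest was called by itself at -0.14 (adjusted p = 0.0226 by limma across every probe set).

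Both cytosolic HSP90 genes were slightly lower without a call. HSP90AA1, the inducible form, gave 12.70, 12.69 and 12.67 in the arrays labelled overexpression and 12.73, 12.71 and 12.74 in those labelled control, which did not overlap (-0.04 ± 0.018, SE; limma, adjusted p = 0.317). HSP90AB1, the constitutive form, gave 12.58, 12.57 and 12.63 against 12.65, 12.66 and 12.61, which overlapped (-0.05 ± 0.021, SE; limma, adjusted p = 0.319). The lower ends of their 95% intervals were -0.08 and -0.09.

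DNAJ proteins, the partners that start the HSP70 cycle, moved in no common direction. Of 9 genes 1 fell and none rose, 5 were negative and 4 positive, and the median was -0.002. DNAJB1 gave 10.17, 10.15 and 10.13 in the arrays labelled overexpression against 10.28, 10.29 and 10.32 in those labelled control, with each labelled overexpression array below each control array. The difference was -0.15 ± 0.024 (SE) (limma, adjusted p = 0.00356), and all 3 DNAJB1 probe sets were negative, at -0.15, -0.085 and -0.17, with 2 called by themselves. It was called in each of the 18 fits but the one without a mean-variance trend (adjusted p = 0.212). DNAJB6, a suppressor of protein aggregation, gave -0.06 with no overlap and no call.

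DNAJB4, a heat-inducible relative of DNAJB1, lay on the other side, at 9.65, 9.68 and 9.70 against 9.62, 9.61 and 9.59. Its difference of 0.07 ± 0.026 (SE) was not called (limma, adjusted p = 0.202), and of its other probe sets 1 was positive and 1 was near 0. DNAJB2, a neuronal J protein that delivers clients to the proteasome, gave 0.11 with overlapping groups and 5 of 6 probe sets positive. DNAJA4 had the highest value of the family at 0.13 ± 0.074 (SE), from dim signals of 3.21, 3.23 and 3.17 against 3.05, 3.16 and 3.01. DNAJA1 and DNAJA2, the general J proteins of the cytosol, gave 0.005 and -0.03, the mitochondrial DNAJA3 gave -0.002, and DNAJB5 gave -0.08, all with overlapping groups.

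The small heat shock proteins, which hold unfolded chains without ATP, were split. HSPB8 gave 9.69, 9.60 and 9.66 in the arrays labelled overexpression and 9.44, 9.48 and 9.47 in those labelled control. The groups stood apart by more than their spread, with a difference of 0.18 ± 0.029 (SE) (limma, adjusted p = 0.00374), and the other HSPB8 probe set was called as well at 0.16 (adjusted p = 0.0156 by limma across every probe set). Without a mean-variance trend it was not called (adjusted p = 0.193).

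HSPB1 gave 11.50, 11.49 and 11.58 against 11.62, 11.65 and 11.62, with overexpression replicate 3 nearest to the control values. Its difference of -0.11 ± 0.025 (SE) passed narrowly (limma, adjusted p = 0.0400). It rests on a single _x_at probe set, and it was no longer called with the trend left out of the fit (adjusted p = 0.372), without overexpression replicate 1 (0.215) or 2 (0.147), or without control replicate 1 (0.127), 2 (0.154) or 3 (0.0637). HSPB6, a muscle-enriched member, gave 0.08 from a dim 4.73 and 4.64, with overlapping groups.

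**Figure D2:**
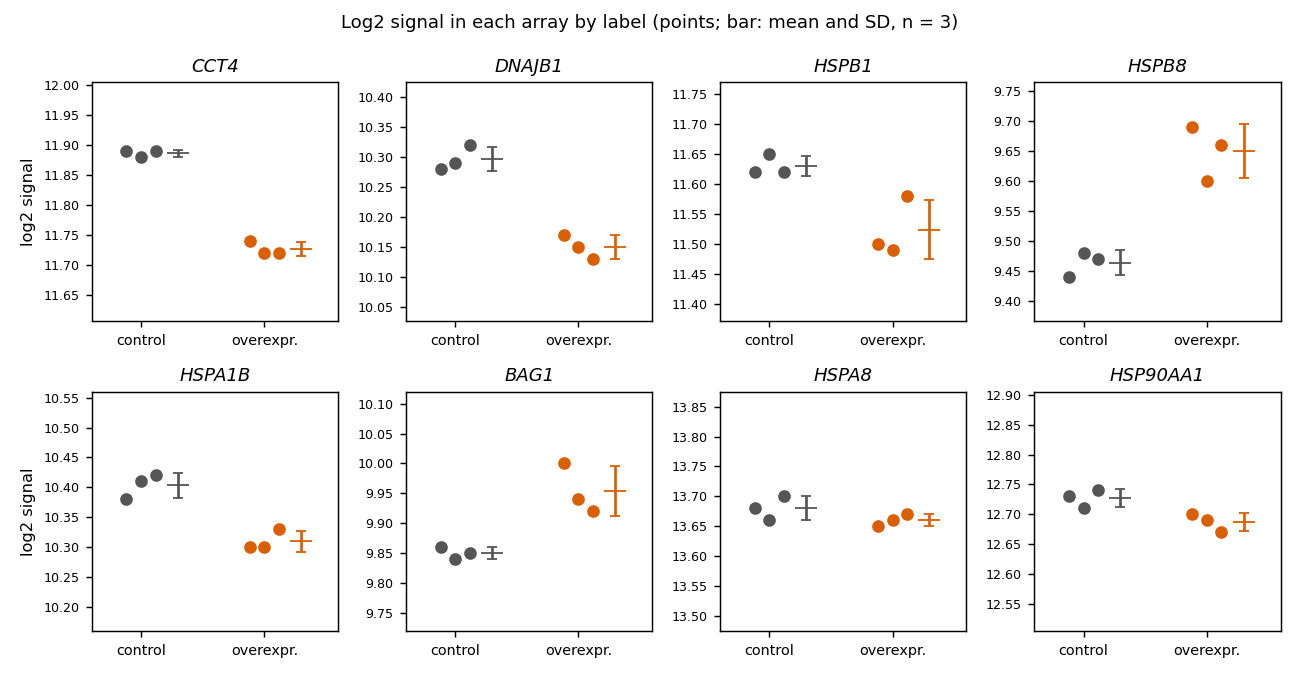
Log2 signal (vertical axis, each panel spanning 0.4) of 8 genes in the 3 arrays labelled control (grey) and the 3 labelled overexpression (orange), with a bar for the mean and SD, n = 3. The groups stand apart for CCT4, DNAJB1, HSPB1, HSPB8, HSPA1B, BAG1 and HSP90AA1 and overlap for HSPA8.

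The CCT ring folds actin and tubulin and is built of different subunits in fixed places, of which 7 were listed and measured. CCT4 fell and none rose, 5 of the 7 were negative, and the median was -0.04, or -0.018 without overexpression replicate 2. CCT4 gave 11.74, 11.72 and 11.72 in the arrays labelled overexpression and 11.89, 11.88 and 11.89 in those labelled control. The gap was many times the spread within either group, a difference of -0.16 ± 0.018 (SE) (limma, adjusted p = 0.000316). This value is that of 1 probe set. The other 3 CCT4 probe sets, at similar brightness, gave -0.035, -0.045 and -0.051 and none was called. With the mean of all 4 the difference was -0.07 (adjusted p = 0.0692), with the brightest, of the _x_at type, it was -0.04 (adjusted p = 0.464), and a fit with no trend did not call it (adjusted p = 0.162).

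TCP1, the CCT1 subunit, gave 11.34, 11.33 and 11.37 against 11.42, 11.41 and 11.42, and CCT3 gave 12.09, 12.07 and 12.10 against 12.15, 12.15 and 12.16. Neither pair of groups overlapped, and neither difference, at -0.07 ± 0.020 (SE) for TCP1 and -0.07 ± 0.018 (SE) for CCT3, was called (limma, adjusted p = 0.0924 and 0.0747), although CCT3 was when dimmer genes were left out (adjusted p = 0.0398). The other 4 CCT3 probe sets lay between -0.054 and 0.004. CCT7 gave -0.04 without overlap, while CCT8 (-0.01), CCT5 (0.008) and CCT2 (0.02) overlapped. Of 6 CCT5 probe sets 1, that standing for the gene, was positive. CCT2, the highest of the ring, gave 11.66, 11.63 and 11.66 against 11.65, 11.59 and 11.65. CCT6A, a subunit outside the list, gave 0.01.

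The mitochondrial chaperonin HSPD1 and its lid HSPE1, which share a bidirectional promoter, were not called, at -0.04 and -0.05 with overlapping groups. HSPD1 gave 11.94, 11.97 and 11.82 against 11.93, 11.86 and 12.04, the lowest and highest values being those of replicate 3 of each label. HSPE1, read from an _x_at probe set, gave 9.63, 9.72 and 9.68 against 9.69, 9.74 and 9.75. Of 7 HSPD1 probe sets 4 were negative and 3 were near 0. A probe set shared by HSPD1 and HSPD1P5 gave -0.077 without overlap (adjusted p = 0.106 by limma across every probe set). Of 2 shared by HSPE1 and HSPE1-MOB4, 1 gave -0.096 without overlap (adjusted p = 0.306) and the other -0.006 with overlap.

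**Figure D3:**
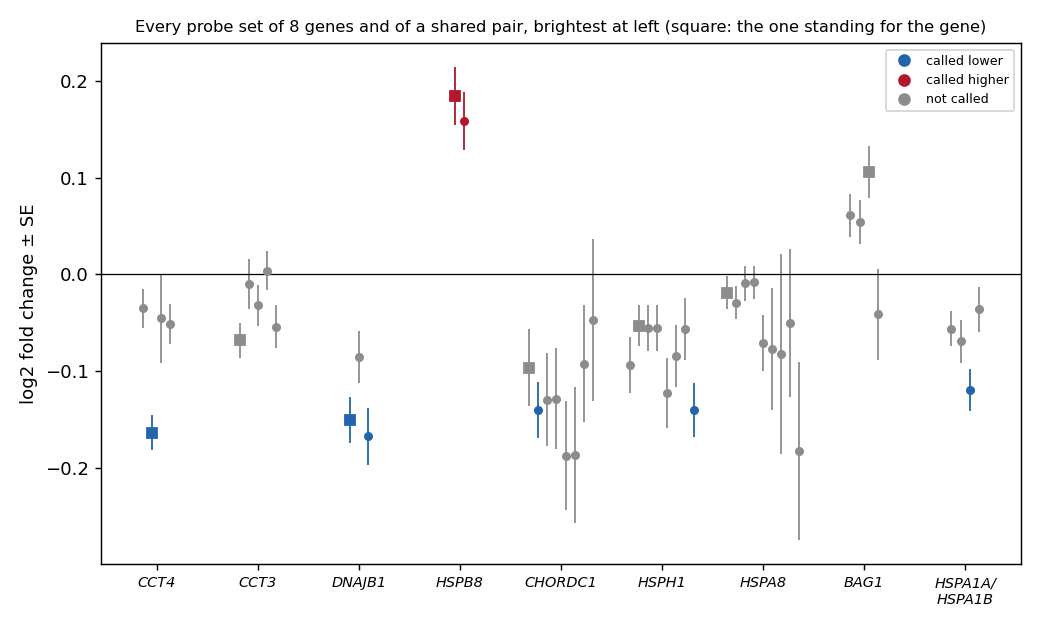
Log2 fold change with its SE (vertical axis) of every probe set of 8 chaperone genes that names 1 gene, and of the 4 assigned jointly to HSPA1A and HSPA1B, ordered from the brightest at the left within a gene. Squares mark the probe set standing for each gene. Of 4 CCT4 probe sets, all negative, 1 is called, and the probe sets of DNAJB1, HSPB8, CHORDC1, HSPH1 and HSPA8 also lie on 1 side of 0 within each gene.

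Among the co-chaperones none of 5 genes was called (limma; 2 negative and 1 positive at an unadjusted p under 0.05). BAG1, a nucleotide exchange factor of HSP70 that also binds the proteasome, gave 10, 9.94 and 9.92 in the arrays labelled overexpression against 9.86, 9.84 and 9.85. The groups did not overlap, and the difference of 0.11 ± 0.027 (SE) lay just outside the threshold (limma, adjusted p = 0.0570). It was called without overexpression replicate 3 (adjusted p = 0.0413) and in 3 other fits, and 3 of its 4 probe sets were positive. BAG3, the partner of HSPB8, was level at 10.13, 10.03 and 10.14 against 10.08, 10.12 and 10.10, with a 95% interval of -0.07 to 0.06 around -0.005, and BAG2, an inhibitor of the ubiquitin ligase CHIP, gave 0.02.

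STIP1, which links HSP70 to HSP90, gave 10.79, 10.74 and 10.80 against 10.85, 10.87 and 10.83, without overlap. Both of its probe sets were negative, at -0.075 and -0.083, and it was not called (limma, adjusted p = 0.124). Averaging its probe sets gave a call (adjusted p = 0.0488). CHORDC1, an HSP90 partner, gave 10.49, 10.54 and 10.46 against 10.61, 10.48 and 10.68, which overlapped through control replicate 2. The difference was -0.10 ± 0.039 (SE) (limma, adjusted p = 0.276), and without that array CHORDC1 was called at -0.15 (adjusted p = 0.0360). All 8 CHORDC1 probe sets were negative, from -0.19 to -0.05, and 1 passed by itself at -0.14 (adjusted p = 0.0283 by limma across every probe set). HSF1 gave 7.54, 7.55 and 7.65 against 7.65, 7.51 and 7.48, a difference of 0.03 with a 95% interval of -0.08 to 0.14.

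Over all 130 probe sets that name 1 of these genes, 86, or 66.2%, were negative, against 48.2% of all 49293 probe sets. Calls were made for 5 of the 130 on the lower side and 2 on the higher, where the shares over all probe sets were 0.887% and 0.605%. Probe sets of 1 gene share its RNA and are not independent. Of the 30 genes with more than 1 probe set, 13 had the same sign on every one, among them DNAJB1, HSPB8, HSPH1, CHORDC1, STIP1, CCT4, HSPA4 and HSPA8. In others, among them HSPA9, HSPA13, CCT5 and DNAJB5, the probe set standing for the gene was the only one of its sign. The share of genes with a single sign was not computed over all genes.

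Seen array by array in the deposited values, the medians of the HSP70, HSP90 and CCT families separated the labels. Those of the other families with more than 1 gene did not. Each gene was set against its own mean over the 6 arrays. The HSP70 median lay between -0.023 and -0.016 in the arrays labelled overexpression and between 0.003 and 0.047 in those labelled control, control replicate 3 being highest, and without that array the median HSP70 difference was -0.019. For HSP90 the ranges were -0.033 to -0.014 and 0.011 to 0.029, and for CCT -0.05 to 0.001, overexpression replicate 2 being lowest, and 0.01 to 0.03. The DNAJ, small heat shock protein, co-chaperone and mitochondrial chaperonin medians overlapped. Over all 39 genes the range was -0.014 to -0.006 in the arrays labelled overexpression and 0.007 to 0.031 in those labelled control. The median over all genes overlapped, from -0.009 to 0.006. The medians of the arrays themselves ran from 6.181 to 6.204, a range of similar size to the gaps for these families. The separation was not examined after median centring and may not hold there.

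**Figure D4:**
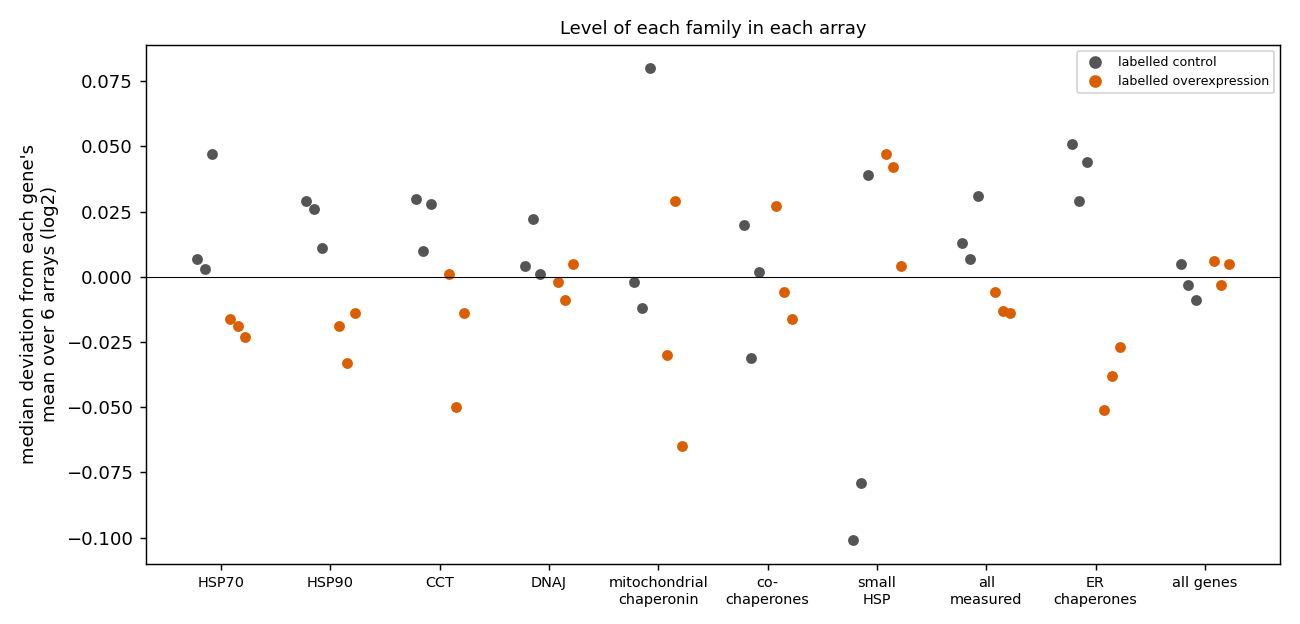
Median over each family of the deviation from each gene's mean over 6 arrays (vertical axis, log2), 1 point per array, grey for arrays labelled control and orange for arrays labelled overexpression. In the deposited values, with no centring of the arrays, HSP70, HSP90, CCT, all 39 measured genes and the endoplasmic reticulum chaperones separate by label. All genes together do not.

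The change was also set beside the upstream letters, as a description with no test. The 19 measured genes with a match in a window had a median log2 fold change of -0.035 and a range of -0.15 to 0.18, with 12 negative. The 18 without a match had a median of -0.036 and a range of -0.16 to 0.11, with 15 negative. DNAJB1, HSPB1 and HSPB8 were the called genes with a match, and CCT4 the called gene without. DNAJB1 and HSPB1 fell and HSPB8 rose. Their GAANNTTC matches began 77 and 47 bases before the start in DNAJB1, 182 in HSPB1 and 88 in HSPB8. Whether the letters bear on these changes was not tested.

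**Figure D5:**
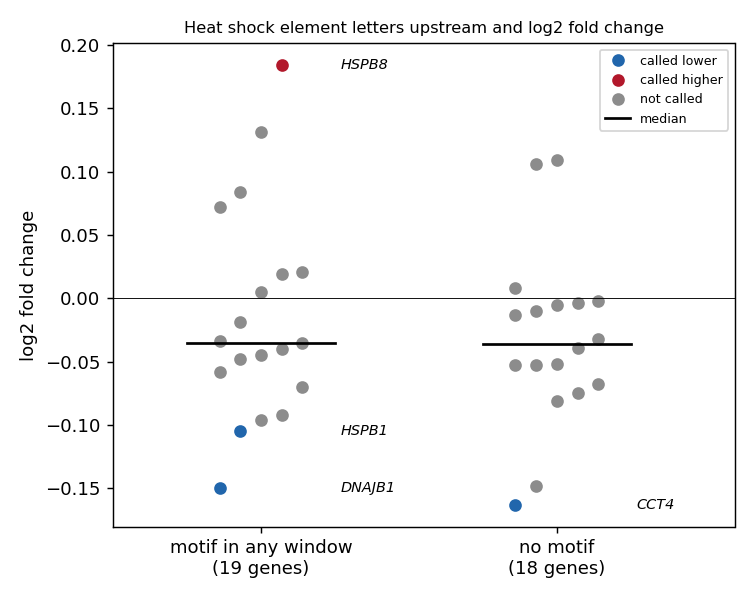
Log2 fold change (vertical axis) of the 19 measured genes with GAANNTTC or TTCNNGAA in the 250 bases before a start site and of the 18 without, with a line for the median. The medians are -0.035 and -0.036, and called genes are named.

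Other chaperones of the cytosol and mitochondria, a list of 69 further genes of which 65 were measured, held 1 call. DNAJC12, a J protein that assists aromatic amino acid hydroxylases, fell by 0.18 ± 0.041 (SE) (limma, adjusted p = 0.0393), at 7.85 against 8.02, and of the fits that leave out 1 array only that without overexpression replicate 3 called it. The 1.54% called is near the background of 2.16%, and the list's median was -0.01. At an unadjusted p under 0.05 (limma), 12 of the 65 were lower and 3 higher. The groups did not overlap in 15.4% of the 65 on the lower side and 9.23% on the higher, against 8.61% and 9.68% of all genes. Medians within the list ran from -0.055 for the HSP90 co-chaperones to 0.096 for the further HSP70 and small heat shock proteins. The chaperones of the endoplasmic reticulum, which serve secreted and membrane proteins, were lower more widely. Of 20 measured 5 fell, or 25%, and none rose, with a median of -0.07, beside 4 of 39 called and a median of -0.03 in the cytosolic and mitochondrial list. They were HSPA5, the HSP70 of that compartment, which fell by 0.20, and the folding enzymes PDIA3, by 0.16, PDIA4, by 0.11, and PDIA6, by 0.10, with the stress-induced SDF2L1, by 0.12 (limma, adjusted p = 0.000593 to 0.0495). HSPA5 and PDIA3 were called in each fit that leaves out 1 array, while PDIA4 was lost without overexpression replicate 1 or control replicate 1, PDIA6 was called only without overexpression replicate 1 and SDF2L1 only without overexpression replicate 3. The difference between the compartments was not tested, and both lists were chosen with earlier results of these data known.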

How the data were processed

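Total RNA was hybridised to 6 arrays, 3 per label. The deposited values are log2 signals per probe set. They are credited to MAS5 per the submitters' processing notes, with no version, and the log base was inferred from the values. How they were summarised and scaled was not settled, and no genome build is given in the sources used here. Low values and fold sizes depend on that method. No detection calls or scanner files were used here.

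Of 49395 probe sets, 44988 named 1 gene in the platform annotation, 1832 several, 2473 none and 102 were controls. Symbols were updated by gene number for 44961. Each gene was read from its brightest probe set, _x_at only where it had no other. The labelled groups were tested by limma 3.58.1 under R 4.3.3 (eBayes with a mean-variance trend, two-sided, Benjamini-Hochberg over 18132 genes, or 49293 probe sets), with no added normalization or filter. The fit was also run on simulated data, independent normal values drawn from each gene's mean and within-group SD. That setting cannot show whether the spread between arrays is purely technical or whether the trend is warranted. The 42 genes and all lists were chosen with earlier results of these data known. Each of the 39 measured genes has a value in the text, and those given array by array are the called ones, those called under an alternative, and the extremes of each family, with some added after their values were seen. The background among the brightest 25% of genes was also added then. Alternatives were quantile normalization, median centring, a linear offset of 16, filters on dim genes, other choices of probe set, limma without a trend, robust or with array weights, a block for replicate number, and leaving out each array. Upstream sequences come from RefSeq. Figures used matplotlib 3.10.9 in Python 3.11.15.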

Additional observations from a re-analysis of the deposited data

How the results depend on the processing

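Of the 39 chaperones, 9 were called in at least 1 of 18 limma fits and 0 in every fit, and 26 kept their sign in every fit that held them. Against 4 called, there were 7 with only genes at least as bright as the median, 3 with the replicate number as a block, and 3 to 5 when 1 array was left out. By probe set 7 were called, 4 with the block, and 2 to 7 without 1 array. Without a mean-variance trend limma called 0 of the 39, 0 of their probe sets, 0 other chaperones (1 with the trend) and 0 endoplasmic reticulum chaperones (5 with it), and 11 of all genes (392 with it). At an unadjusted p under 0.05 that fit held 8 of the 39, 19 of their probe sets, 13 other chaperones and 9 endoplasmic reticulum chaperones. The replicate block gave 172 of all genes, 2 endoplasmic reticulum chaperones and 0 other chaperones (14 at an unadjusted p under 0.05), and it lost HSPB1 (adjusted p = 0.102). The deviations of each gene from its group mean correlated at 0.129, -0.071 and -0.073 between same-numbered arrays. Those arrays share only a number, so this block is no paired analysis. Other chaperones numbered 2 with quantile normalization or median centring and 4 with the median filter, the 25th percentile filter or array weights, and 0 to 4 without 1 array. Endoplasmic reticulum chaperones numbered 8 with the median filter and 2 to 4 without 1 array, and all genes 116 to 375 without 1 array.

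The median of the 39 was -0.02 with array weights and -0.037 to -0.008 without 1 array. Without 1 array the family medians ran from -0.049 to -0.019 for HSP70, -0.049 to -0.018 for CCT, -0.015 to 0.002 for DNAJ and 0.023 to 0.148 for the small heat shock proteins. The DNAJ median was -0.017 with either filter, 0.012 with the mean of all probe sets and -0.032 with _x_at probe sets allowed. Signs turned, with no call, for the mean of all probe sets in HSPA9 (0.012), HSPA13 (0.028), HSPA14 (-0.002), DNAJA2 (0.015), DNAJA3 (0.012), CCT5 (-0.021) and BAG2 (-0.012), with _x_at allowed in DNAJA1 (-0.034), CCT5 (-0.036) and CCT8 (0.018), and with median centring in DNAJA3 (0.001). Leaving out 1 array gave -0.119 to 0.022 for HSPA1L, -0.035 to 0.011 for HSPA9, -0.011 to 0.002 for HSPA13, -0.015 to 0.017 for DNAJA1, -0.007 to 0.002 for DNAJA3, -0.077 to 0.013 for HSPD1, -0.026 to 0.03 for BAG3 and -0.005 to 0.082 for HSF1. The causes were not tested. The number of arrays, 3 per label, and signals near the low end, as in DNAJA4 and HSPB6, limit the precision.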
